A study of Mus musculus with 4 samples.

Results

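Collagens are the main fibre- and sheet-forming proteins of the extracellular matrix, and their genes were followed here across livers of mice given a carcinogen, a bile acid diet, both or neither. The genes were all those whose gene symbol follows the collagen pattern (Col, a type number, the letter a and a chain number) and whose probe set names no other gene. This gave 42 of the 18194 genes named on the array, measured by 82 probe sets. Of the 44 genes of that pattern in the RefSeq mouse annotation, Col6a6 and Col28a1 were not analysed here. By structure, 11 of the 42 are fibrillar collagens, 8 belong to the basement membrane (type IV and the multiplexins Col15a1 and Col18a1) and 23 are other collagens.

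Each of 4 groups of mice was measured on 1 Affymetrix array with liver RNA pooled from 3 to 5 mice at 10 months of age. The groups were diethylnitrosamine (DEN) followed by a diet with 0.2% cholic acid (CA), DEN followed by the control diet, the CA diet without DEN, and the control diet without DEN. DEN is a carcinogen widely used to start liver tumours in rodents, and CA is a primary bile acid. Tumours appear in the title of the series, but every sample is labelled as liver. The sources used here do not give the strain, the sex, the dose and time of DEN, the length of the feeding or the tumour content of each pool. With 1 pool per group there was no replicate and no test, so each difference below is that of 2 pools, and differences between mice cannot be told apart from the treatments.

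A collagen molecule is a rope of wound chains, which can be copies of a single chain or the products of different genes. Fibrillar collagens such as types I, III and V assemble into the fibres that form scar tissue, and in the liver they are made mainly by activated stellate cells and portal fibroblasts. Type IV collagen instead forms the flat network of basement membranes, on which laminins, nidogens and perlecan are assembled, and the normal hepatic sinusoid has little of it. FACIT collagens decorate the surface of fibres, type VI forms beaded filaments, and several others are known from cartilage, skin or nerve.

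Values are log2 expression levels made by the authors with RMA, and levels of different probe sets are not compared with each other. The array has no detection call in the deposited values. A level under 4.85, the median of all values of all probe sets, was taken as background. Before differences were taken, levels under this limit were raised to it. A fold against a raised level is a lower bound and is written as "at least". Genes with a log2 difference of 1 or more, which is 2-fold, were counted as higher or lower.

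Among 18 hybridization control probe sets, the largest difference with DEN was 0.370 on the CA diet and 0.203 on the control diet. Between the diets it was 0.267 after DEN and 0.305 without DEN. The 3′ minus 5′ signal of the Actb control probe sets, a measure of RNA integrity, was 1.70 and 1.77 (log2) in the DEN pools against 1.86 and 1.90 in the pools without DEN, CA diet first. The same measure for Gapdh was 0.435 and 0.481 in the DEN pools against 0.505 and 0.444 in the pools without DEN, so these pools overlapped. All 6 hepatocyte markers were far above background, with Alb at log2 levels of 14.74 to 14.82 on the 4 arrays. Whether RNA integrity had a part in the collagen differences was not tested.

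Of the 42 collagen genes, 15 lay under the background limit on all 4 arrays. These were the fibrillar chains Col11a1, Col11a2 and Col24a1, the basement membrane collagen Col15a1, and 11 others, namely Col6a4, Col6a5, Col8a2, Col9a1, Col9a2, Col10a1, Col17a1, Col19a1, Col22a1, Col23a1 and Col26a1. Their log2 levels ran from 2.03 (Col24a1) to 4.70 (Col15a1). Col15a1 had 4.24 and 4.53 in DEN pools, against 4.70 and 4.58 in pools without DEN, CA diet first. Many of these chains are known from cartilage (types IX, X and XI) or skin (type XVII). Another 21 collagens were above the limit on all 4 arrays, and 6 on some of them (Col1a1, Col2a1, Col4a3, Col4a4, Col4a5 and Col9a3). Col2a1, the main cartilage collagen, reached the limit only on the control diet without DEN, at a log2 level of 4.85 against 4.27 to 4.51 on the other arrays.

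**Figure D1:**
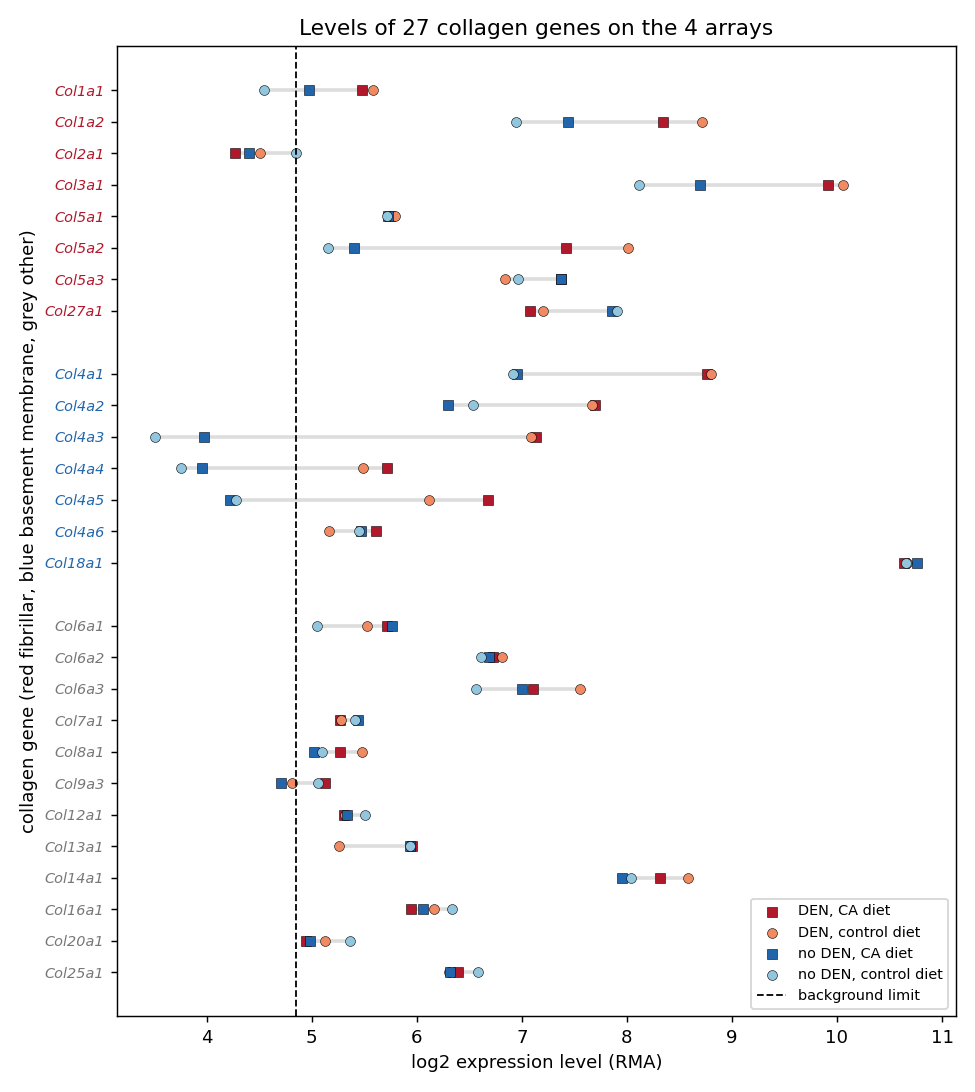
Log2 expression levels (x axis) of the 27 collagen genes above background on at least 1 array, with a point for each of the 4 pools, squares for the CA diet and circles for the control diet; the dashed line is the background limit of 4.85. Red and orange points of the DEN pools lie right of the blue points of the pools without DEN for Col1a2, Col3a1, Col5a2 and Col4a1 to Col4a5, while Col18a1 spans 10.64 to 10.77.

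DEN against no DEN asks which collagen genes differ in livers of mice given the carcinogen. On the control diet 7 of the 42 genes (16.7%) were at least 2-fold higher with DEN, against 3.07% of all named genes, and 0 were at least 2-fold lower, against 0.561% of all. On the CA diet 6 of the 42 (14.3%) were higher, against 2.95% of all, and 0 were lower, against 1.08%. Col3a1, Col5a2, Col4a1, Col4a2, Col4a3 and Col4a5 were higher on both diets, and Col1a2 reached 2-fold on the control diet only. By class these were 4 of 8 basement membrane collagens on each diet, 2 of 11 fibrillar collagens on the CA diet and 3 of 11 on the control diet, and 0 of 23 others. With each array centred on the median of expressed genes, 6 collagens were higher on each diet. Of all named genes, 2.61% were then higher and 1.32% lower on the CA diet, and 2.34% and 1.02% on the control diet. That centring moved the median difference of expressed genes from 0.00 to -0.07 (CA diet) and from 0.04 to -0.13 (control diet). The DEN difference of the collagens was thus carried by a few genes. Medians are given for the deposited values, without raising low levels: over all 42 the median log2 difference was 0.03 on the CA diet and -0.05 on the control diet, against -0.01 and -0.02 over all named genes. With low levels raised, these medians were 0.00 for the collagens and for all genes on both diets. The 8 basement membrane collagens alone had deposited medians of 1.58 and 1.43, but 1.13 and 0.89 with low levels raised, the second of which is short of 2-fold. The deposited medians were 0.00 and -0.12 for the fibrillar collagens and 0.01 and -0.14 for the others, and 0.00 for both classes on both diets with low levels raised. At 1.5-fold, 8 collagens were higher and 1 lower on the CA diet, where 6.65% and 3.73% of all named genes were. On the control diet 10 were higher and 2 lower, where 7.01% and 2.68% were. In these bulk pools, more cells of a type and more RNA per cell cannot be told apart.

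**Figure D2:**
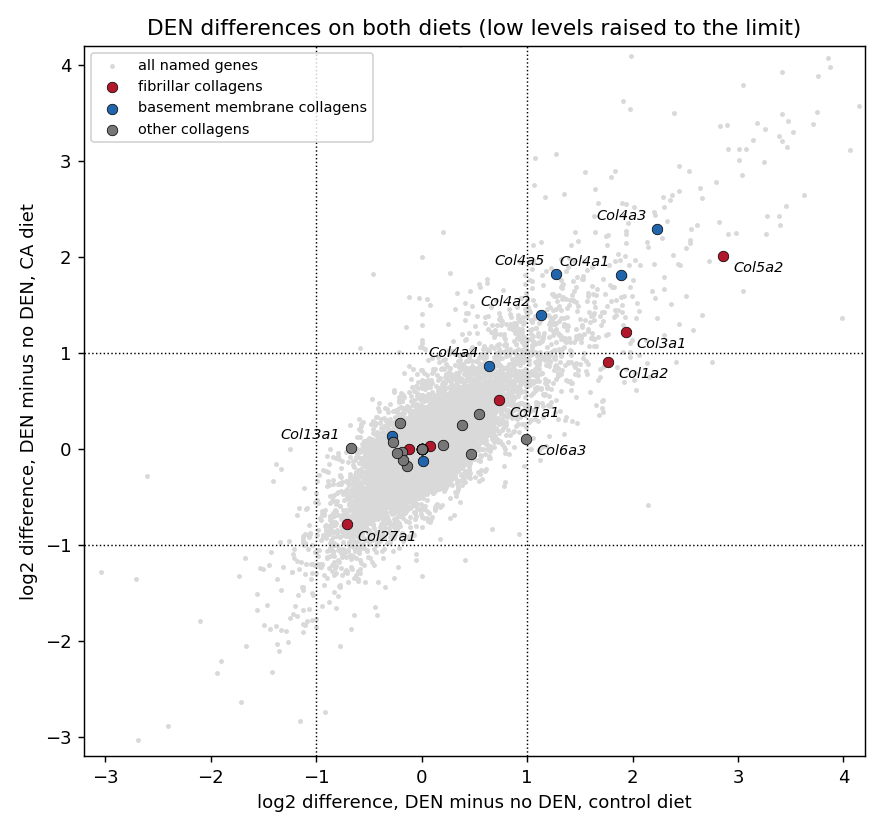
Log2 difference, DEN minus no DEN, for the control diet (x axis) and the CA diet (y axis), with low levels raised to the limit, for all named genes (light grey; 23 lie outside the axes) and the 42 collagens by class. Dotted lines mark 2-fold; the type IV chains Col4a1, Col4a2, Col4a3 and Col4a5 and the fibrillar Col3a1 and Col5a2 lie above it on both axes, and Col1a2 and Col6a3 lie at 0.91 and 0.10 on the CA diet.

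Among fibrillar collagens, the chains of types I, III and V were measured alongside the minor type XXVII. Col3a1 encodes the only chain of type III collagen, an early component of fibrous tissue. Its log2 level was 9.92 on the CA diet and 10.05 on the control diet in DEN pools, against 8.70 and 8.12 without DEN. Both DEN pools lay above both pools without DEN, by 2.33-fold on the CA diet and 3.83-fold on the control diet. The other probe set of Col3a1 was under the limit without DEN and differed by at least 0.55 and at least 1.38 (log2).

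Col5a2, a chain of type V collagen, which starts fibre assembly and controls fibre width, had the largest difference of any collagen on the control diet once low levels were raised. Without raising, Col4a3 differed by more (3.58 against 2.86, log2). Its log2 level was 7.42 on the CA diet and 8.02 on the control diet with DEN, against 5.40 and 5.16 without DEN. The DEN pools were 4.04-fold higher on the CA diet and 7.25-fold higher on the control diet. Its other probe set was above the limit only in the DEN pool on the control diet, where it differed by at least 0.57 (log2). With the limit at the 75th percentile, the difference of Col5a2 on the CA diet was 0.78. Col5a2 is the next gene to Col3a1 on chromosome 1 (24.6 kb apart in GRCm38.p6, with 0 RefSeq genes between). Col5a1, which encodes the partner chain of Col5a2 in most type V collagen, had log2 levels of 5.75 and 5.80 in DEN pools, against 5.72 and 5.72 without DEN, CA diet first. Its differences of 0.03 and 0.08 turned to -0.05 and -0.09 once arrays were centred. Centring also moved the median of expressed genes to -0.07 and -0.13, so this turn says little of Col5a1 itself. Both differences were smaller than the largest of the hybridization controls (0.370 and 0.203), so no direction is given for the probe set used. The other probe sets of Col5a1 disagreed, with 0.34 and 0.96 for the nearest in level and -0.38 on both diets for the remaining probe set.

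Type I collagen, the most abundant collagen of scar tissue, joins chains of Col1a1 and Col1a2. Col1a2 had log2 levels of 8.34 (CA diet) and 8.71 (control diet) with DEN, against 7.44 and 6.95 without DEN. The DEN pools were again above both others, by 1.87-fold on the CA diet and 3.40-fold on the control diet. A second probe set of Col1a2, under the limit without DEN, differed by at least 1.43 and at least 2.02 (log2), and the remaining probe set was at background. Col1a1 lay close to the limit, at log2 levels of 5.48 and 5.59 with DEN against 4.97 and 4.55 without DEN, CA diet first. Its differences were 0.51 on the CA diet and at least 0.73 on the control diet, and its other probe set was at background on all 4 arrays. The difference of Col1a1 thus rests on levels near background. Without raising low levels, Col1a1 differed by 1.03 on the control diet and would pass 2-fold.

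The remaining fibrillar genes did not reach 2-fold. Col5a3 stood at log2 levels of 7.37 and 6.84 with DEN, against 7.37 and 6.97 without DEN, CA diet first, so the pools overlapped. Col27a1, a fibrillar collagen known from cartilage, had the lowest difference of all 42 collagens on both diets. Its log2 level was 7.08 and 7.199 with DEN, against 7.86 and 7.91 without DEN, or 1.72-fold and 1.63-fold lower. Another probe set of Col27a1 gave -0.39 on the CA diet and -1.01 on the control diet.

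The upstream sequences of Col1a2 and Col3a1 are shown because these fibrillar genes were higher together with DEN, and each stretch is the 250 bases before the RefSeq start site in GRCm38.p6. Col1a2 lies at chr6:4505368-4505617 (plus strand) and Col3a1 at chr1:45311288-45311537 (plus strand), and neither stretch overlaps a RefSeq gene. Capitals mark matches, on either strand, to the CCAAT box (letters CCAAT), to the TATA box (searched as TATAAA), to the GC box (searched as GGGCGG) and to the AP-1 site (searched as TGANTCA, where N is any base). These matches do not overlap each other.
Col1a2: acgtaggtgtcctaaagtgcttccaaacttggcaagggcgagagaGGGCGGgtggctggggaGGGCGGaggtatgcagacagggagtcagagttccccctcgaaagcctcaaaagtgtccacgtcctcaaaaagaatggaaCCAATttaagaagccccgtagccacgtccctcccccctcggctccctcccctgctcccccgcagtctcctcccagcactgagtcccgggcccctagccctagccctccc
Col3a1: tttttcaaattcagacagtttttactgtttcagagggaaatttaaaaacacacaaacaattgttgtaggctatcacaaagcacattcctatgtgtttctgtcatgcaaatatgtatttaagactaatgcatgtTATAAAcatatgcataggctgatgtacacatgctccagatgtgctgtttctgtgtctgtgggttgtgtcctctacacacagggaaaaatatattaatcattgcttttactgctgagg
The Col1a2 stretch holds 2 matches to GGGCGG, which 32.9% of 27025 mouse promoters of this length hold at least once, and 1 to CCAAT, which 34.5% hold. The Col3a1 stretch holds 1 match to TATAAA, which 12.97% of promoters hold. No motif was in both stretches, and TGANTCA, found in 6.87% of promoters, was in neither.

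The 6 type IV genes lie in head-to-head pairs, each pair on a chromosome of its own. Col4a1 and Col4a2 encode the chains of the widespread form of type IV collagen. Col4a1 had log2 levels of 8.76 (CA diet) and 8.80 (control diet) with DEN, against 6.95 and 6.91 without DEN. Within each treatment the diets lay close together, and the DEN pools were 3.51-fold and 3.70-fold higher. Its second probe set showed differences of 0.77 and 0.85 (log2). Col4a2, which has a single probe set, stood at 7.69 and 7.67 with DEN, against 6.29 and 6.54 without DEN, which is 2.64-fold higher on the CA diet and 2.19-fold higher on the control diet. On the control diet Col4a2 was just short of 2-fold (0.97) once arrays were centred, which moved the median of expressed genes to -0.13. The start sites of Col4a1 and Col4a2 on chromosome 8 lie 21 bases apart on opposite strands in the RefSeq table.

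Col4a3, Col4a4 and Col4a5 encode the chains of the form known from the kidney glomerulus, lung and inner ear. All 3 were under the background limit on both arrays without DEN and above it on both arrays with DEN. Col4a3 had log2 levels of 7.14 and 7.09 with DEN, against 3.98 and 3.51 without DEN, CA diet first. The fold was at least 4.89 on the CA diet and at least 4.71 on the control diet. Its other probe set lay near the limit, with differences of at least 0.31 and 0.67 (log2). Col4a4, whose gene overlaps that of Col4a3 by 114 bases on chromosome 1, stood at 5.72 and 5.49 with DEN, against 3.96 and 3.76 without DEN. Its difference was at least 0.87 on the CA diet and at least 0.64 on the control diet with low levels raised, and so did not count as 2-fold. Without raising low levels, Col4a4 differed by 1.76 and 1.73. Col4a5 stood at 6.68 and 6.12 with DEN, against 4.23 and 4.28 without DEN, at least 3.55-fold and at least 2.41-fold higher. A second probe set of Col4a5 lay near the limit and differed by at least 0.44 on the CA diet and at least 0.0038 on the control diet, and the mean of both probe sets differed by 0.64 on the control diet. With the background limit set at the 75th percentile of all values (6.64), the bounds shrank to 0.50 and 0.44 for Col4a3 and to 0.04 and 0.00 for Col4a5, so that neither was counted.

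Col4a6, the neighbour of Col4a5 on chromosome X, did not share this pattern. Its log2 level was 5.61 and 5.17 with DEN, against 5.47 and 5.45 without DEN, CA diet first, so the pools overlapped (differences of 0.14 and -0.28). The other basement membrane collagens also stayed apart from the type IV chains: Col18a1, the precursor of endostatin and known to be made by hepatocytes, stood at 10.64 and 10.67 with DEN against 10.77 and 10.65 without DEN, and Col15a1 was at background. A second Col18a1 probe set stood at 9.58 and 9.92 with DEN against 9.93 and 10.17 without DEN, differences of -0.35 and -0.25.

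**Figure D3:**
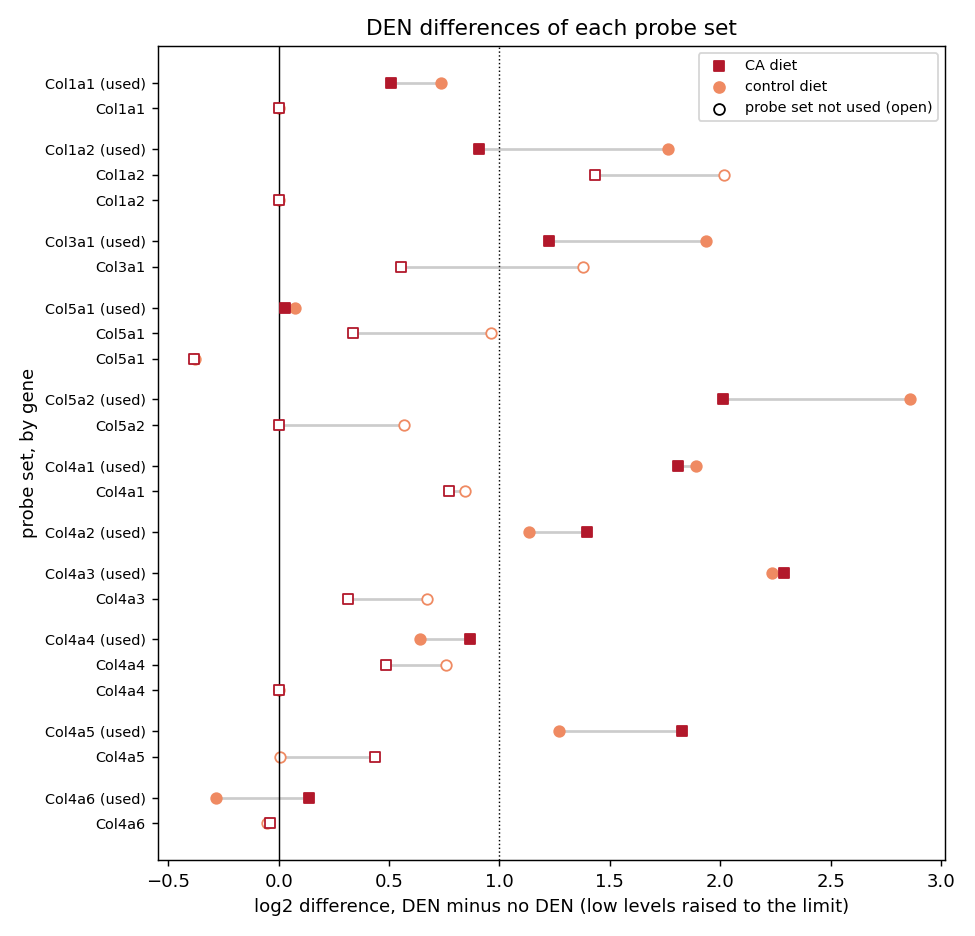
Log2 difference between DEN and no DEN (x axis, low levels raised to the limit) for every probe set of the fibrillar genes of types I, III and V (Col5a3 left out) and of all type IV genes, with red squares for the CA diet and orange circles for the control diet. Filled points are the probe sets with the highest mean level, which give the gene's value; for Col1a2 and Col3a1 a second probe set is past 2-fold on the control diet, and those of Col4a1, Col4a3, Col4a5 and Col5a2 lie below 1.

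The stretches before the start sites of Col4a5 and Col4a6 are shown because these neighbours differed in the DEN pools. The genes are 1274 bases apart and are read in opposite directions. The stretches are cut where the gene spans begin: chrX:141475169-141475369 for Col4a5 (plus strand, 201 bases) and chrX:141474096-141474326 for Col4a6 (minus strand, 231 bases), in GRCm38.p6. Capitals mark the same motifs as above.
Col4a5: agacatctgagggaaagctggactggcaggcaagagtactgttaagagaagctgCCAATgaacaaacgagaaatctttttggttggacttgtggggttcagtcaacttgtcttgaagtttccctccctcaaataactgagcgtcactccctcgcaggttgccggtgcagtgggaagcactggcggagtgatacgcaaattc
Col4a6: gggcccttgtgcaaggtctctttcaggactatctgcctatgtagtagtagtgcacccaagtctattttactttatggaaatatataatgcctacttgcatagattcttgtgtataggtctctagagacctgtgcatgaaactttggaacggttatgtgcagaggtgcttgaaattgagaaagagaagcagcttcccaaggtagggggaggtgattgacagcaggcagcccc
The Col4a5 stretch holds 1 match to CCAAT, which 29.0% of promoter stretches of that length hold, and none to the other motifs. The Col4a6 stretch holds none of the 4 motifs. Of stretches of its length, the CCAAT box is in 32.9%, the GC box in 30.1%, the TATA box in 12.4% and the AP-1 site in 6.46%.

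None of the 23 other collagens reached 2-fold with DEN on either diet. Col6a3, the long chain of the type VI beaded filament, came closest on the control diet. Its log2 level was 7.11 and 7.56 with DEN, against 7.01 and 6.57 without DEN, CA diet first. This is a difference of 0.99 on the control diet and of 0.10 on the CA diet. The pool with DEN on the control diet was highest, the pool with neither treatment was lowest, and both CA diet pools lay between. Col6a1, another chain of that filament, had 5.72 and 5.52 with DEN, against 5.77 and 5.05 without DEN. Col6a2, the remaining chain measured above background, had 6.73 and 6.82 with DEN, against 6.69 and 6.61 without DEN (differences of 0.04 and 0.20). The first was -0.04 once arrays were centred, which moved the median of expressed genes to -0.07. Col14a1, a FACIT collagen of fibre surfaces, stood at 8.32 and 8.58 with DEN against 7.95 and 8.04 without DEN, which is 1.29-fold and 1.46-fold higher, but its second probe set differed by -0.03 and -0.05. Col8a1, a short network-forming collagen of vessel walls, differed by 0.25 and 0.38, while another of its probe sets differed by 0.00 on the CA diet and at least 1.04 on the control diet.

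Others lay close to 0 or below it with DEN. Col13a1, a transmembrane collagen, stood at 5.95 and 5.26 with DEN against 5.94 and 5.94 without DEN, so only the DEN pool on the control diet was low. Col7a1 (the anchoring fibril), Col12a1 and Col16a1 (FACIT collagens) and Col20a1 had differences between -0.24 and -0.03 on both diets. Other probe sets did not all share this side. A second Col12a1 probe set had log2 levels of 5.00 and 4.88 with DEN, against 3.98 and 4.13 without DEN, a difference of at least 0.15 and at least 0.03. A second Col20a1 probe set differed by 0.27 and -0.05. Col9a3, at 4.71 to 5.12, and Col25a1, at 6.31 to 6.58, had differences of 0.27 and 0.07 on the CA diet and -0.21 and -0.27 on the control diet. In all, 14 of the 42 collagens had both DEN pools above both pools without DEN, where 22.6% of all named genes did, and 3 (Col7a1, Col12a1 and Col27a1) had both below on the probe set used, where 18.8% of all did. Beside the 7 genes past 2-fold, those with both DEN pools above were Col1a1, Col4a4, Col5a1, Col6a2, Col6a3, Col8a1 and Col14a1.

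The CA diet against the control diet asks whether the bile acid load goes with a difference in collagen genes. After DEN, 0 of 42 collagens were at least 2-fold higher and 0 lower, against 0.203% and 0.286% of all named genes. Without DEN, the counts were also 0 and 0, against 0.352% and 0.357% of all. The median log2 difference of the deposited values over the 42 genes was 0.01 after DEN and 0.0026 without DEN, against 0.00 and 0.0030 over all named genes. With low levels raised all of these medians were 0.00.

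Few collagens passed even 1.5-fold on the CA diet with the probe sets used. Probe sets not used for Col8a1 (-1.04, on a raised level) and Col3a1 (-0.83) were also past 1.5-fold after DEN. After DEN, Col13a1 was 1.62-fold higher and Col5a2 1.51-fold lower, where 0.901% and 1.13% of all named genes passed 1.5-fold upwards and downwards. Without DEN, Col6a1 was 1.64-fold higher (log2 levels of 5.77 on the CA diet and 5.05 on the control diet), where 1.37% of all did, and 0 collagens were 1.5-fold lower, where 1.03% of all were. Col3a1 came next at 1.49-fold. Type IV genes differed by -0.04 to 0.56 on the CA diet after DEN, with Col4a5 highest, and by -0.24 to 0.04 without DEN. Without DEN, Col4a3, Col4a4 and Col4a5 were under the limit on both arrays, so raising set their differences to 0.00. In the deposited values these were 0.47, 0.20 and -0.06.

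**Figure D4:**
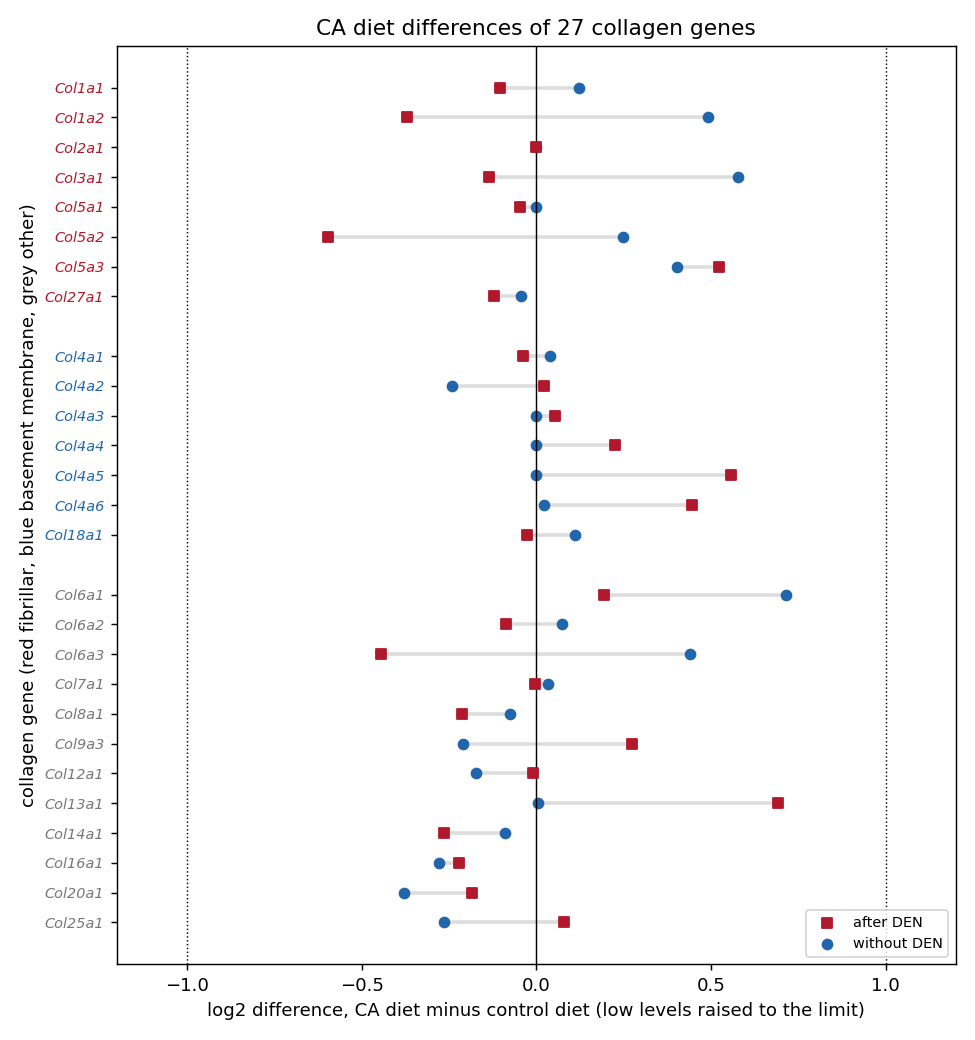
Log2 difference between the CA diet and the control diet (x axis, low levels raised to the limit) after DEN (red squares) and without DEN (blue circles) for the 27 collagens above background on at least 1 array. All points lie inside the dotted lines of 2-fold, and the points furthest from 0 are Col6a1 without DEN (0.71) and Col13a1 after DEN (0.69).

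The design also allows the diet difference after DEN to be set against that without DEN, which is the same quantity as the DEN difference on the CA diet minus that on the control diet. On the probe sets used, no collagen was 2-fold apart (0 of 42, where 0.297% of all named genes were higher and 0.357% lower). At 1.5-fold there were 5: Col6a3 (-0.89), Col1a2 (-0.86), Col5a2 (-0.84) and Col3a1 (-0.71) were lower and Col13a1 (0.69) was higher, where 1.87% of all named genes were lower and 1.37% higher. Thus the 3 fibrillar genes past 2-fold with DEN all stood less far from the pools without DEN on the CA diet. Their second probe sets, on raised levels without DEN, stood at -0.83 (Col3a1), -0.58 (Col1a2) and -0.57 (Col5a2). Other probe sets of Col8a1 (-1.04), Col5a1 (-0.63) and Col27a1 (0.62) passed 1.5-fold, that of Col8a1 also 2-fold. The type IV genes stood at 0.56 for Col4a5, 0.42 for Col4a6, 0.27 for Col4a2, 0.23 for Col4a4, 0.05 for Col4a3 and -0.08 for Col4a1 (0.0060 once arrays were centred). Centring moved the median of expressed genes on this quantity from -0.04 to 0.04. The values of Col4a3, Col4a4 and Col4a5 rest on raised levels without DEN. In the deposited values Col4a3 stood at -0.42, on the side of the fibrillar genes, Col4a4 at 0.03 and Col4a5 at 0.62. The 18 hybridization control probe sets ranged up to 0.572 in size on this quantity (SD 0.16), and it rests on 4 single pools, so the contrast between the classes was not tested.

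DEN with the CA diet against neither treatment gave 7 collagens at least 2-fold higher, against 3.65% of all named genes, and 0 lower, against 1.39%. At 1.5-fold 10 were higher and 1, Col27a1, was lower, against 7.67% and 4.32% of all. They were the same 7 genes as for DEN on the control diet, which shares the array without either treatment. Of these, Col4a1 and Col4a2 alone stayed past 2-fold under every alternative tried. Col4a2 has a single probe set, so the other probe set rules could not change its value. The folds were 2.63 for Col1a2, 3.48 for Col3a1, 4.80 for Col5a2, 3.61 for Col4a1, 2.23 for Col4a2, and at least 4.89 for Col4a3 and at least 3.55 for Col4a5.

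Genes that make, bind and remove collagen are given for comparison, from lists chosen by function. Of all named genes, 2.95% were at least 2-fold higher with DEN on the CA diet and 3.07% on the control diet. The shares at least 2-fold lower were 1.08% and 0.561%. With such shares, a count of 0 or 1 in a short list is not read as a trait of that list. Of 15 measured partners of type IV collagen in the basement membrane, only Nid1 was at least 2-fold higher with DEN, on both diets, and none was lower. Nid1 encodes nidogen 1, which links the laminin and collagen IV networks. Its log2 level was 10.77 in both DEN pools against 7.25 (CA diet) and 7.02 (control diet) without DEN, 11.4-fold and 13.4-fold higher. A second probe set of Nid1 differed by 3.08 and 2.28, and the remaining probe set was at background. Its relative Nid2 was 1.98-fold and at least 1.95-fold higher, while the perlecan gene Hspg2 differed by -0.14 and -0.08 and the 10 measured laminin chains lay between -0.69 and 0.48.

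Among 14 organisers of fibres, Sparc, whose product binds fibrillar and type IV collagens, was 2.62-fold and 3.04-fold higher with DEN. Another Sparc probe set differed by 1.35 and 1.73 (log2) and the remaining one by -0.05 and -0.36. Postn, periostin, was 1.77-fold and 2.52-fold higher. The proteoglycan gene Dcn differed by -0.22 and -0.09. Of 18 genes for hydroxylation, folding and glycosylation of collagen chains, none passed 2-fold in either direction on either diet, which is near the shares of all named genes given above. Serpinh1, the collagen chaperone HSP47, differed by 0.27 and 0.76 (log2). Of 5 measured cross-linking genes, Loxl4 and Tgm2 were each about at the threshold, 2.003-fold and at least 2.09-fold for Loxl4 and 2.01-fold and 2.10-fold for Tgm2, and Lox was at background. Of the other 5 probe sets of Tgm2, 1 passed on the CA diet and 3 on the control diet, and the other probe set of Loxl4 differed by 0.00. Of 8 genes of procollagen cleavage only Mep1b, meprin beta, passed, at least 3.91-fold and at least 3.70-fold higher.

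Of 13 genes of collagen degradation and its inhibitors only Mmp14, a membrane-bound collagenase, passed, 2.91-fold and 2.97-fold higher, though its other probe sets differed by 0.26 to 0.80 (log2). None of 11 collagen receptors passed. No gene of these lists was 2-fold lower with DEN, where 1.08% of all named genes were on the CA diet and 0.561% on the control diet.

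Marker genes of other cells differed with DEN in both directions and to unequal degrees, and their part in the collagen differences was not tested. Beside the counts of these short lists stand the shares of all named genes, 2.95% and 3.07% higher and 1.08% and 0.561% lower, CA diet first. Of 9 stellate cell and fibroblast markers only Acta2, the smooth muscle actin of activated stellate cells, was at least 2-fold higher with DEN, by 4.43-fold on the CA diet and 3.83-fold on the control diet. Its other probe sets were at background. The stellate cell genes Lrat (-0.39 and -0.41), Des (0.03 and -0.04) and Gdf2 (-0.47 and -0.39) were close to or below 0. So were Hgf (-0.70 and -0.19) and Lhx2 (-0.60, on a raised level, and -0.32). The median log2 difference of the 9 markers was -0.22 on the CA diet and -0.09 on the control diet. Pdgfrb, a growth factor receptor gene of these cells, differed by 0.75 and 0.64, and Reln by 0.15 and 0.80. The summed level of the list was 11.54 and 11.75 (log2) with DEN against 11.57 and 11.51 without DEN. Of 6 portal fibroblast and myofibroblast markers, Postn and Tagln passed on the control diet only, and the summed level was 8.91 and 9.06 against 8.26 and 8.15. Msln was at background on all arrays.

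Of 8 endothelial markers, Emcn (at least 2.78-fold) and Lyve1 (2.06-fold) passed on the CA diet and Lyve1 (2.52-fold) on the control diet. A second Lyve1 probe set differed by 0.62 and 0.79 (log2). The summed level of the endothelial list was 10.99 and 10.71 with DEN against 10.46 and 10.41 without. Sox9 was the only one of 5 measured cholangiocyte markers past 2-fold, on both diets, though its second probe set differed by 0.54 and 0.94 (log2) and the remaining one by 0.00. The summed level of this list was 7.66 and 7.32 against 7.003 and 6.73. The cholangiocyte genes Krt7 and Cftr were at background. Of 6 macrophage markers Cd68 passed on both diets, with a summed level of 12.19 and 11.63 against 11.68 and 11.03. Of 6 chondrocyte markers none was higher, Cnmd was lower on both diets (-2.33 and -1.94), and Comp, Matn1 and Hapln1 were at background, as were most of the cartilage collagens. The summed level of the chondrocyte list was 7.40 and 7.43 with DEN against 8.45 and 8.29 without. Each of these sums adds linear levels of different probe sets, so the highest genes weigh most. In the chondrocyte list the highest gene without DEN was Cnmd, at 5.26 and 5.39 with DEN against 7.59 and 7.34 without. In the stellate cell list Dcn and Reln were the highest.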

How the data were processed

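Liver RNA (1 µg, isolated with Trizol) of 4 pools was labelled with a biotin dendrimer kit, per the labels' protocols, and hybridised to 1 Affymetrix mouse array per group. This kit is known from arrays of small RNA, how it served for this array is not stated in the labels, and its effect on the levels was not tested. The authors used RMA and Partek 6.5 to obtain the deposited log2 levels, per the submitters' processing notes, which as given here name no options. Medians over 45101 probe sets ran from 4.843 to 4.865. RMA draws the arrays together, so a change of most genes one way would be removed. The number of arrays limits the precision.

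Of the probe sets, 34958 had 1 gene symbol in the platform annotation, 932 several and 9211 none. RefSeq (GRCm38.p6) matched 34754 of those with 1 symbol and changed 0 symbols. Where a gene has several probe sets, the one highest on average stood for it. Full values are given for collagens 2-fold different in any of 5 comparisons and for 13 liver collagens set by name; of other lists, for members past 2-fold with DEN and a few named for contrast after their values were seen. Members and lists were chosen with earlier results of these data known. Promoters are RefSeq's (33 of 42 genes matched); protein sequences were not used here. Python 3.11.15, numpy 2.4.6, pandas 2.3.3 and matplotlib 3.10.9 were used, and the steps were tested on simulated data. Alternatives were other background limits, no raising of low levels, a threshold of 1.5-fold, quantile normalization, centring of arrays (on the median of expressed genes), other probe set rules and a filter on level.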

Additional observations from a re-analysis of the deposited data

How the results depend on the processing

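The counts and medians over the 42 collagens were recomputed under 9 alternatives, and 107 values stayed within 1.5 times the count or, for medians, within 1 SD of the hybridization controls, while 17 did not. Most counts were 0 to begin with: all of lower collagens, those of the CA diet and that between the diet effects. For comparisons of 2 arrays, a higher limit or the filter on level could only leave a 0 as it was. The 107 are therefore no measure of how firm the differences are. No collagen past 2-fold changed direction under any alternative. Other limits, no raising, the 1.5-fold threshold and the filter on level cannot reverse a direction, so they are no check of it. Quantile normalization and centring moved the median of all genes by only -0.01 and -0.16 for DEN on the control diet. Against differences of 2-fold they were a weak check, which leaves the other probe set rules. With the limit at the 75th percentile (6.64), 3 collagens instead of 6 were higher with DEN on the CA diet, and 4 instead of 7 for DEN with CA against neither. The share of all named genes at that limit was 1.48% in place of 2.95%, and 1.82% in place of 3.65%. Under every alternative 2 of 6 genes (Col4a1 and Col4a2) stayed past the threshold with DEN on the CA diet, the same 2 of 7 for both treatments against neither, and 4 of 7 (Col1a2, Col3a1, Col4a1 and Col5a2) on the control diet. The other probe set rules could not change Col4a2, which has a single probe set, and the 1.5-fold threshold could drop no gene. At 1.5-fold, 1 and 2 collagens were lower with DEN on the CA diet and the control diet, 1 was lower for both treatments against neither, 1 was higher and 1 lower on the CA diet after DEN, 1 was higher without DEN, and 5 were apart between the diet effects. Taking the probe set with the largest range gave 1 collagen lower with DEN on the control diet, 1 lower on the CA diet after DEN and 1 apart between the diet effects. Under that rule 0.731% and 0.330% of all named genes were lower in the first 2 comparisons. Between the diet effects 0.335% were higher and 0.401% lower. The same rule gave a median of 0.14 for DEN with CA against neither, in place of 0.03. Centring each array shifted the median of all genes by -0.16 for DEN on the control diet and by -0.12 for DEN with CA against neither. The collagen medians were then -0.21 and -0.084. Over collagens with a mean at or above the limit these medians were 0.20 and 0.17. That filter leaves out the low genes, but its mean includes the DEN arrays. Col4a3 and Col4a5 were under the limit on both arrays without DEN and passed it only through their DEN pools. The filtered medians thus lean upwards by construction and show no direction of the family. The cause of the other shifts was not tested. No paired analysis was possible because each group has 1 array and the labels carry no replicate numbers. Levels near background, with 1 pool per group, limit Col1a1, Col4a3, Col4a4 and Col4a5 most.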
